A study of Mus musculus with 24 samples.

Results

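Protocadherins are cell adhesion proteins of the cadherin superfamily, and their genes were described here in neurons and glia of the mouse hippocampus after kainic acid (KA) and after a sham injection (SH). Genes were taken by symbol: every gene whose symbol starts with Pcdh followed by a, b, g or a digit, with 10 or more counts in at least 3 of the 12 libraries. Of 53379 genes in the count table, 70 had such a symbol and 68 of these passed the count rule. They were 56 clustered members (13 Pcdha, 22 Pcdhb and 21 Pcdhg genes) and 12 non-clustered members. The 2 genes that did not pass were Pcdha4, which has 404 exon bases of its own, and Pcdhga10, which has 0. All 68 members also passed the filter on low counts that left 37598 genes for testing.

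The mice were adult C57/BL6N males, acquired at 8 weeks of age and kept for 4 weeks before surgery. KA mice received kainic acid in the deep cortex next to the right hippocampus, and only those with convulsive seizures were kept, whereas SH mice received saline at the same place. Right hippocampi were taken 24 hours later from 8 mice per treatment and combined into 3 pools, with 4 mice in pool 1 and 2 mice in pools 2 and 3. Nuclei were sorted by NeuN, an RNA binding protein of neuronal nuclei. Every pool yielded a NeuN+ library (neurons) and a NeuN- library (glia, which here means every cell type without NeuN). The 4 groups were thus KA neurons, SH neurons, KA glia and SH glia with 3 libraries each. The RNA was nuclear, and no genotype, transgene or second agent differed between the groups.

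Clustered protocadherins lie in 3 neighbouring arrays in which each variable first exon has its own promoter. In Pcdha and Pcdhg every variable exon is spliced to the same constant exons, whereas each Pcdhb gene is a single exon. A neuron transcribes only some of the variable exons, chosen with CTCF and cohesin, and the resulting proteins bind their own kind between membranes, which lets neurites of 1 cell recognise each other. The C-type members Pcdhac1, Pcdhac2, Pcdhgc3, Pcdhgc4 and Pcdhgc5 at the ends of the arrays are chosen differently from the others. Non-clustered protocadherins, among them the delta group, are separate genes with their own expression patterns, and some of them are linked to epilepsy (PCDH19) or are induced by synaptic activity (Pcdh8, also called arcadlin).

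On chromosome 18 of GRCm38 the Pcdha genes span chr18:36930184-37187661, the Pcdhb genes chr18:37264938-37524479 and the Pcdhg genes chr18:37661793-37841873, all on the plus strand. In the authors' counting a read on exons shared by several genes was dropped, so the constant exons gave no reads to any single Pcdha or Pcdhg gene. The share of a gene's exon bases that other genes also cover was 48.6% to 83.2% (median 53.6%) in Pcdha and 31.5% to 73.6% (median 45.2%) in Pcdhg. It was 0 in 19 of 22 Pcdhb genes and in 8 of 12 non-clustered genes. Counts of clustered members therefore come from variable exons. Levels between genes were compared as CPM (counts scaled to the library's TMM-normalised total) per 1000 bases of a gene's own exons, called the per-length level. Some 50-base words of these exons occur more than once in the genome and could have lost uniquely mapped reads: they made up 14.7% of the words in the median Pcdha gene, 3.48% in Pcdhb, 1.45% in Pcdhg and 0 in the non-clustered genes, with the highest share of 25.5% in Pcdha7. The symbol Pcdha11 belongs to 2 gene identifiers, which are kept apart by their numbers.

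Total counts per library ranged from 7769400 to 40364768. Libraries of SH glia pool 1 and KA glia pool 2 were made from about 0.05 ng RNA with 15 PCR cycles, the others from about 1 ng with 10 cycles. Pcdha and Pcdhg members were low in the pool 1 libraries, and Pcdhb members were so less regularly. In SH neurons, pool 1 was the lowest of the 3 libraries for 13 of 13 Pcdha and 20 of 21 Pcdhg genes, against 35.7% of all genes tested. In the other 3 groups pool 1 was the lowest for 9 or 10 of 13 Pcdha and 18 or 19 of 21 Pcdhg genes, while the share over all genes was 25.2% to 40%. For Pcdhb, pool 1 was the lowest for 8 of 22 genes in SH neurons, 14 in KA neurons, 12 in SH glia and 9 in KA glia. Pool 1 also held 4 mice and the other pools 2, and the pool and its number of mice cannot be told apart. The paper names 2 sequencing platforms with different read lengths and does not say which library ran on which. The part of the platform in the pool 1 values was not tested. The main values of clustered members are therefore also given without SH pool 1, an alternative chosen after seeing the data.

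**Figure D1:**
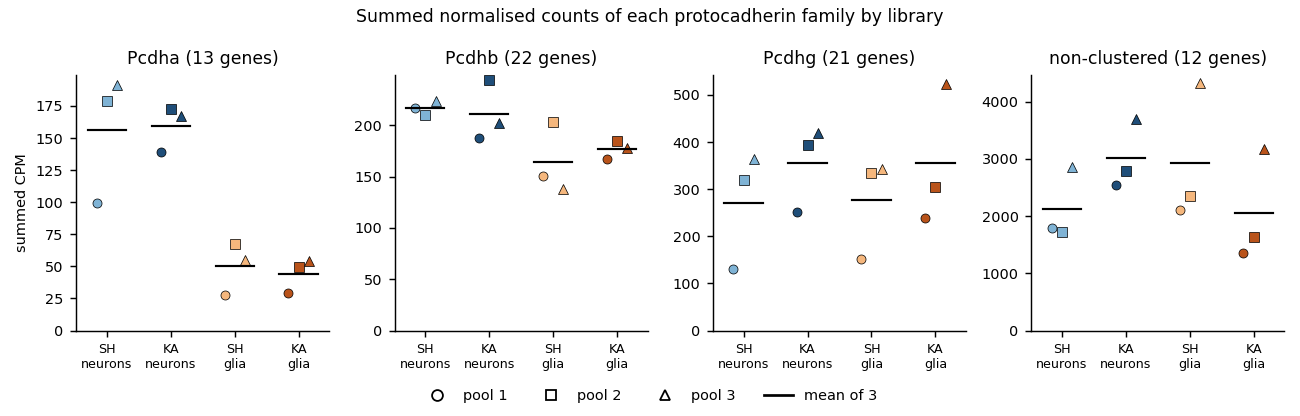
Summed CPM of the members of each family (vertical axis) in each of the 12 libraries, by group (horizontal axis), with the pool as the marker shape and the mean of 3 libraries as a line. Pcdha sums lie between 99.6 and 191 in neurons and between 27.6 and 67.5 in glia, and pool 1 is the lowest Pcdha and Pcdhg library in every group.

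The sort was checked with markers. Rbfox3, the gene of NeuN, lay between 161 and 274 CPM in the 6 libraries of neurons and between 17.7 and 56.9 CPM in those of glia. The microglial Cx3cr1 lay between 2.65 and 10.8 CPM in neurons and between 102 and 388 CPM in glia, and Mbp of myelin between 58.0 and 295 against 1094 and 4976 CPM. Aldh1l1 of astrocytes (5.08 to 12.6 against 22.9 to 38.3 CPM) and Pdgfra of oligodendrocyte precursor cells (OPC; 5.98 to 27.8 against 131 to 371 CPM) separated in the same way. Pecam1 of endothelium was low in both, at 2.16 to 6.03 and 2.15 to 10.8 CPM.

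Non-clustered members had the higher summed and median levels. Their summed CPM was 2127 on average in SH neurons and 2932 in SH glia, compared with 157 and 49.95 for Pcdha, 217 and 164 for Pcdhb, and 271 and 276 for Pcdhg. Of the non-clustered sums, Pcdh9 alone gave 944 CPM in SH neurons and 2066 CPM in SH glia. The median per-length level of a member in SH neurons was 10.0 for the non-clustered group, 3.34 for Pcdha, 2.00 for Pcdhb and 3.52 for Pcdhg. Non-clustered Pcdh11x, Pcdh15, Pcdh18 and Pcdh12 lay below the Pcdha and Pcdhg medians. The cDNA was primed with oligo(dT), and Pcdha and Pcdhg counts leave out the constant exons. The part of this in the levels was not tested. Pcdhac2 had the highest per-length level of Pcdha in SH neurons (21 ± 7.34, SD, n = 3) and Pcdha1 the lowest (1.203 ± 0.60). Pcdhgc5 was the highest of Pcdhg in SH neurons (20.7 ± 10.05) and Pcdhga1 the lowest (0.99 ± 0.58). Pcdhb9 was the highest of Pcdhb (7.35 ± 1.21) and Pcdhb1 the lowest (0.33 ± 0.29). The next in order were Pcdhac1 (5.003) in Pcdha, Pcdhga11 (8.26) in Pcdhg and Pcdhb17 (5.25) in Pcdhb, while the C-type genes Pcdhgc4 (5.80) and Pcdhgc3 (3.62) lay among the other Pcdhg genes.

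The order of the non-clustered members by per-length level in SH neurons began with Pcdh9, a member of the delta-1 group, at 139 (range 101 to 212). Pcdh8 at 55.9 and Pcdh20 at 52.9 followed and their ranges overlapped, and both lay below Pcdh9 and above Pcdh17 in every library. Pcdh17 (15.8), Pcdh7 (11.8), Pcdh19 (11.8) and Pcdh1 (8.24) each overlapped with the next in order, as did Pcdh11x and Pcdh15 (both 2.49). Pcdh10 (3.88) stood between these groups, and Pcdh18 (0.89) and Pcdh12 (0.52), a gene of endothelial cells, were the lowest. In SH glia Pcdh9 was again the first, at 305 (range 203 to 484), and no other non-clustered member exceeded 15.6 in any SH glia library. Pcdh15, Pcdh20, Pcdh11x, Pcdh8, Pcdh17 and Pcdh7 followed with means from 11.4 to 9.70, each overlapping with the next.

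Neurons and glia of SH mice were compared first, at an FDR of 0.05 in edgeR's quasi-likelihood test. Pcdha genes were higher in neurons: the logFC of neurons over glia was positive for 13 of 13, with a median of 1.42 beside 0.01 over all genes tested. Pcdhb genes differed less (median 0.40, 20 of 22 positive), and Pcdhg genes had a median of -0.35 with 15 of 21 negative. The Pcdhg median was 0.03 without SH neurons pool 1, -0.93 without SH glia pool 1 and -0.58 without both, so its sign depended on 1 library. Of 68 members 7 were higher and 3 lower in neurons, beside 6.05% and 4.67% of all genes. Without the low-input libraries 0 were higher and 3 lower (Pcdh15, Pcdh11x and Pcdhgc3), and without SH pool 1 there were 4 and 3. Neurons and glia of 1 pool come from the same mice, and with the pool as a block 15 members were higher and 4 lower, beside 14.2% and 7.56%. Neuron libraries lay above all glia libraries for 20 members and below for 3, beside 14.1% and 8.57% of all genes. In a sorted fraction a lower share of expressing cells and less RNA per cell cannot be told apart.

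Pcdha accounted for most clustered calls. With the block 9 of its 13 members were higher in neurons of SH mice, while without it 3 were (Pcdha2, Pcdha5 and Pcdhac2). Pcdhac2 was measured at 38.0, 77.1 and 75.7 CPM in SH neurons of pools 1 to 3 and at 3.94, 24.8 and 20.7 CPM in SH glia. The groups did not overlap, and neurons were 9.63, 3.10 and 3.66 times higher than glia within the 3 pools. Its logFC was 1.94 (SE 0.53, FDR = 0.0246, with the block 8.6e-05). The call without the block was lost in 9 alternatives, among them without SH glia pool 1 (logFC 1.15, FDR = 0.112) and without the low-input libraries (logFC 1.24, FDR = 0.255), and it was kept without SH pool 1 (logFC 1.42, FDR = 0.043). Pcdhac1 had 7.87, 15.7 and 14.9 CPM in SH neurons and 1.85, 6.62 and 5.74 CPM in SH glia, which also did not overlap (logFC 1.42, SE 0.46, FDR = 0.0583, with the block 0.00216). The most positive Pcdha value was that of Pcdha2 (logFC 2.48, SE 0.73, FDR = 0.0363, with the block 0.0041), but its count in SH glia pool 1, a library of low input, was 1. The least positive was that of Pcdha11 with the identifier ENSMUSG00000007440 (logFC 0.95, FDR = 0.29, with the block 0.112). Without SH pool 1 the Pcdha median was 1.16.

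The C-type genes of Pcdhg went in opposite directions. Pcdhgc3 was measured at 0.48, 6.66 and 12.7 CPM in SH neurons and 31.8, 41.5 and 54.8 CPM in SH glia. Every glia library exceeded every neuron library, and within pools 2 and 3 glia were 6.24 and 4.33 times higher than neurons. In pool 1 the ratio was 65.6, on a neuron count of 8. The logFC of neurons over glia was -2.68 (SE 0.71, FDR = 0.0195, with the block 0.000207), and the call was lost when SH neurons pool 2 was left out (FDR = 0.0666). Without SH pool 1 the logFC was -2.65 (FDR = 0.0101). Pcdhgc5 showed the reverse, with 44.1, 108 and 134 CPM in SH neurons and 5.23, 38.8 and 34.0 CPM in SH glia (logFC 1.87, SE 0.60, FDR = 0.0555, with the block 6.3e-05). Without SH pool 1 its logFC was 1.40 (FDR = 0.0713). Pcdhgc4, the gene that lies between them in the array, had 7.99, 28.3 and 24.2 CPM in SH neurons and 9.81, 29.8 and 27.0 CPM in SH glia, which overlapped (logFC -0.14, SE 0.47, FDR = 0.954, with the block 0.706).

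Shares within a family do not depend on the scaling between libraries. Pcdhgc5 made up 22.9% ± 1.28 (SD, n = 3) of the summed per-length level of Pcdhg in SH neurons and 4.50% ± 2.34 in SH glia. Pcdhgc3 made up 3.30% ± 2.61 in SH neurons and 22.5% ± 5.85 in SH glia, and Pcdhgc4 6.30% ± 1.24 and 5.56% ± 0.90. Pcdhac2 made up 33.5% ± 2.60 of Pcdha in SH neurons and 24.3% ± 11.8 in SH glia, where the low-input library had 10.6% and the others 30.7% and 31.4%.

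**Figure D2:**
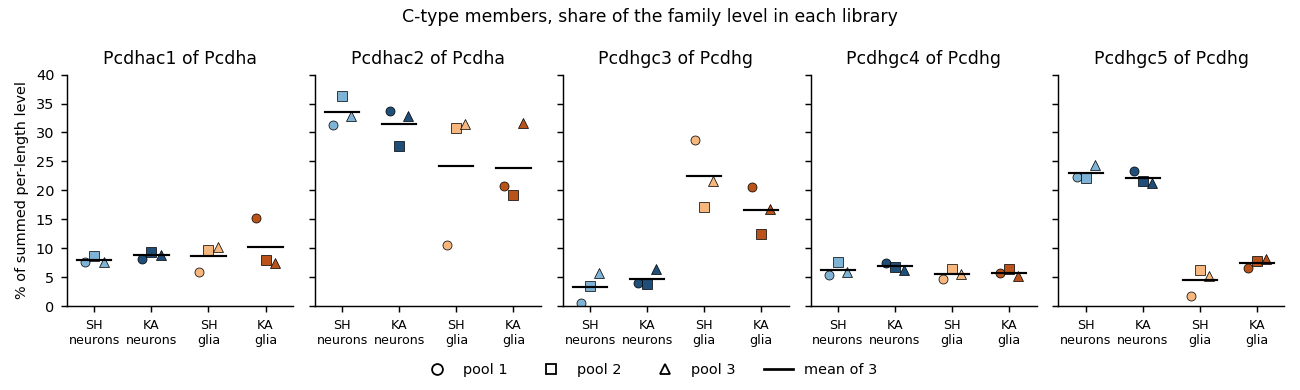
Share of each C-type member in the summed per-length level of its family (vertical axis, percent) in each library, by group (horizontal axis), with the pool as the marker shape and the mean as a line. Pcdhgc5 takes 21.2% to 24.4% of Pcdhg in the neuron libraries and 1.87% to 8.23% in the glia libraries, Pcdhgc3 the reverse, and Pcdhgc4 stays between 4.65% and 7.70% in all 12.

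No Pcdhb gene differed between neurons and glia of SH mice without the block, and 1 did with it. This was Pcdhb20, at 17.5, 16.2 and 16.7 CPM in neurons and 2.17, 9.35 and 11.5 CPM in glia (logFC 1.12, FDR = 0.162, with the block 0.0232). The lowest glia value was that of the low-input library, in which several Pcdhb genes were almost absent, among them Pcdhb19 (count 3) and Pcdhb2 (count 0). Pcdhb19 had the most positive value of the family (logFC 1.30, SE 0.68, FDR = 0.322, with the block 0.06) and Pcdhb9 the most negative (logFC -0.05, SE 0.35, FDR = 0.983, with the block 0.976). Without SH pool 1 the Pcdhb median fell from 0.40 to -0.08, so its sign rested on that pool.

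Non-clustered members formed no single group. Higher in neurons of SH mice were Pcdh8, Pcdh20, Pcdh19 and Pcdh1, and lower were Pcdh15 and Pcdh11x. Without the low-input libraries the 4 higher calls were lost in the fit without the block (FDR = 0.207 for Pcdh8, 0.0664 for Pcdh20, 0.0571 for Pcdh19 and 0.359 for Pcdh1), and both lower calls were kept. The call of Pcdh1 was lost in 9 further alternatives. That of Pcdh8 was also lost without SH pool 1 (FDR = 0.128), SH neurons pool 3 (FDR = 0.05125), SH glia pool 1 (FDR = 0.09285) or KA glia pool 2 (FDR = 0.05375). Pcdh15, whose protein is known from the tip links of inner ear hair cells and which OPC also express, was at 50.2, 55.5 and 72.0 CPM in neurons and 225, 213 and 371 CPM in glia (logFC -2.19, SE 0.41, FDR = 0.00236, with the block 1.3e-05). Pcdh11x, an X-linked delta-1 gene, was at 31.4, 32.8 and 40.1 CPM in neurons and 123.5, 124 and 188 CPM in glia (logFC -2.06, SE 0.43, FDR = 0.00429, with the block 1.1e-05). Both were lower in every neuron library than in any glia library.

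Pcdh20 was at 301, 226 and 345 CPM in SH neurons and 48.3, 59.5 and 69.3 CPM in SH glia (logFC 2.30, SE 0.38, FDR = 0.000943, with the block 4.6e-05). Pcdh19, the epilepsy gene on the X chromosome, was at 111, 113 and 145 against 9.08, 38.4 and 28.5 CPM (logFC 2.27, SE 0.44, FDR = 0.00259, with the block 7.5e-05). For both genes the groups lay far apart. Pcdh8 had a logFC of 2.43 (SE 0.59, FDR = 0.0122, with the block 0.000166), and Pcdh1 had 1.48 (SE 0.42, FDR = 0.029, with the block 0.00113) with 1 overlapping library, since SH neurons pool 1 had 31.8 CPM against 105 and 80.4 CPM in the other pools. Pcdh9 was lower in neurons only with the block (logFC -1.13, FDR = 0.269, with the block 0.0111), at 710, 682 and 1440 against 1373, 1541 and 3283 CPM. Pcdh17, Pcdh7, Pcdh10, Pcdh18 and Pcdh12 had logFC between -0.40 and 0.62 and did not pass either test.

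In KA mice the comparison of neurons with glia gave 8 members higher and 0 lower in neurons, beside 5.88% and 3.98% of all genes. With the block there were 21 and 1, beside 14.1% and 6.65%. Neuron libraries lay above all glia libraries for 25 members and below for 1, beside 15.3% and 9.84%. The Pcdha median was 1.66 with 13 of 13 positive, when the median of all genes was -0.24, and 12 of 13 Pcdha genes were called with the block. Pcdhgc3 was again lower in neurons with the block (5.89, 9.30 and 16.3 against 35.0, 26.1 and 62.6 CPM, logFC -1.97, FDR = 0.0933, with the block 0.00473), and Pcdhgc5 was higher (88.1, 130.0 and 136 against 28.2, 41.5 and 77.3 CPM, logFC 1.27, FDR = 0.253, with the block 0.00186). Pcdh15 and Pcdh11x, which had been lower in neurons of SH mice, had logFC of -0.53 (FDR = 0.632, with the block 0.136) and 0.61 (FDR = 0.559, with the block 0.0484). Counts without the block rested on single libraries: without KA glia pool 1 or without KA glia pool 2, 0 members were called.

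**Figure D3:**
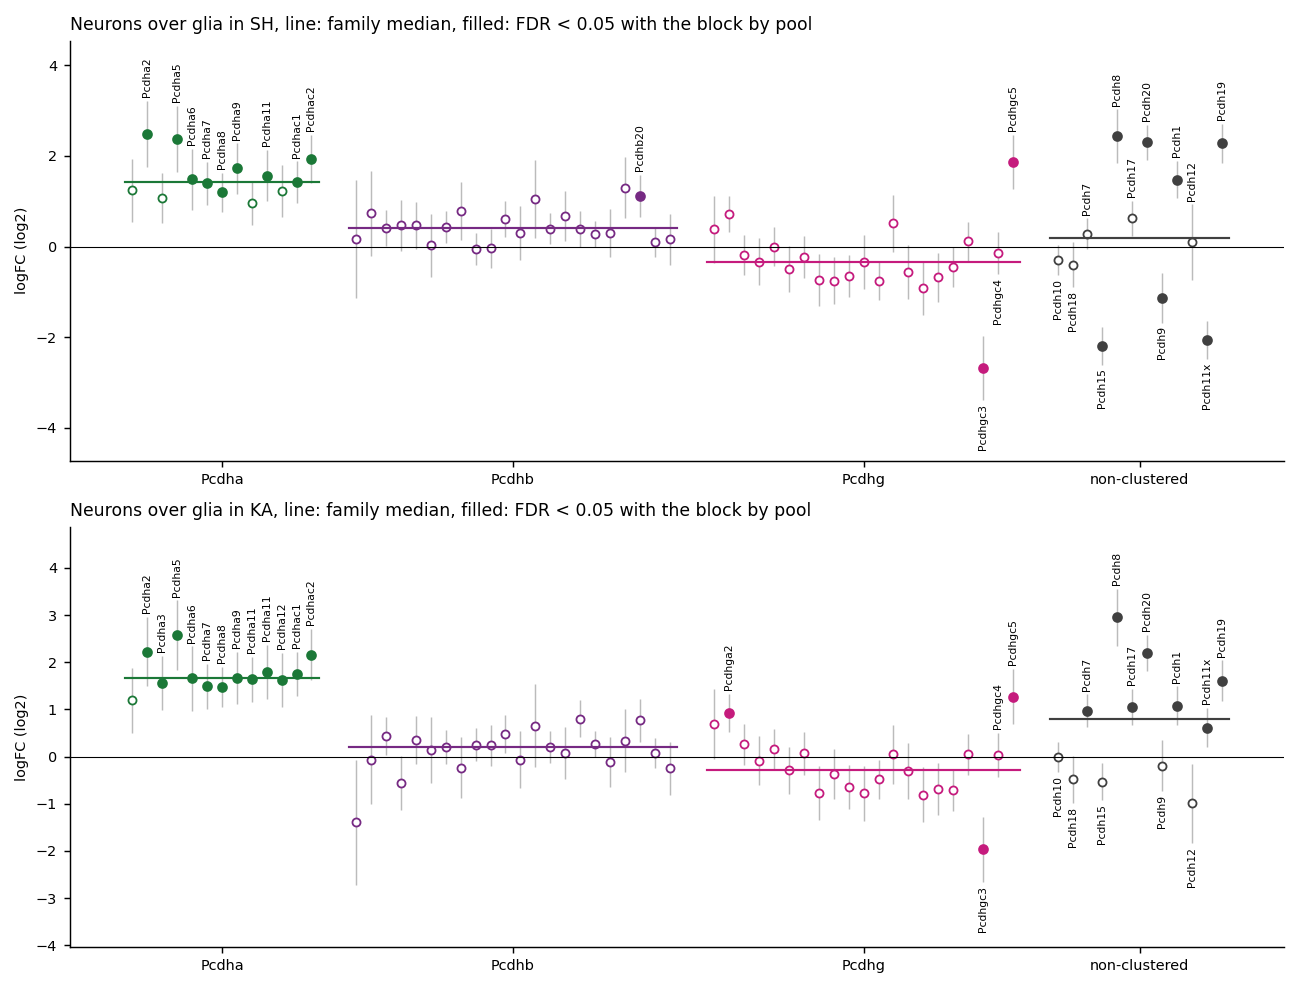
LogFC of neurons over glia (log2, vertical axis) with its standard error for each of the 68 members in SH (upper) and KA (lower), grouped by family and in chromosomal order within it, with the family median as a line. Filled points passed an FDR of 0.05 with the pool as a block. Pcdha genes lie above 0 in both panels, Pcdhgc3 and Pcdhgc5 lie on opposite sides, and Pcdh15 and Pcdh11x are below 0 in SH.

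The question of the study was what KA changed within each cell type, tested at an FDR of 0.25. In neurons Pcdh11x, Pcdh15 and Pcdh8 were upregulated and Pcdh20 and Pcdh19 were downregulated with a replicate block. The block compared KA and SH pools of the same number. These pools hold different mice, and neither the labels nor the paper say that pools of the same number were handled together. In the joint fit of all 12 libraries without the block only Pcdh11x passed. When each cell type was fitted separately, also without the block, Pcdh8 (FDR = 0.00894), Pcdh19 (FDR = 0.0246), Pcdh15 (FDR = 0.0347) and Pcdh20 (FDR = 0.0471) passed too. The paper, which treated neurons and glia separately at the same threshold, lists Pcdh11x as upregulated in neurons. It does not list Pcdh8, Pcdh15, Pcdh19 or Pcdh20 in either cell type. The 5 genes called with the block had the largest changes of all members, and no clustered member passed in neurons. Calls of the joint fit without the block were 1 higher and 0 lower of 68, beside 0.279% and 0.0612% of all genes. With the block they were 3 and 2, beside 1.94% and 1.11%. KA libraries lay above all SH libraries for 8 members and below for 7, beside 5.27% and 4.45% of all genes.

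Pcdh11x spans chrX:120290259-120910619 on the plus strand. It was measured at 31.4, 32.8 and 40.1 CPM in SH neurons of pools 1 to 3 and at 100.1, 194 and 242 CPM in KA neurons and the groups did not overlap. The fold was 5.15 (logFC 2.36, SE 0.43, FDR = 0.0581, with the block 6.7e-05). The call without the block was lost without SH neurons pool 1 (FDR = 0.483), SH neurons pool 2 (FDR = 0.314) or KA neurons pool 3 (FDR = 0.432), while the logFC stayed between 2.08 and 2.65 in all 12 fits that left out 1 library. In glia it was at 123.5, 124 and 188 CPM in SH and 75.1, 91.1 and 184 CPM in KA, which overlapped (logFC -0.31, SE 0.41, FDR = 1.0, with the block 0.557). KA neurons thus reached the range of glia.

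Pcdh15 lies at chr10:73099342-74649737 on the plus strand. It had 50.2, 55.5 and 72.0 CPM in SH neurons and 100.4, 189 and 191 CPM in KA neurons without overlap (logFC 1.43, SE 0.40, FDR = 0.449, with the block 0.00303). In glia the values were 225, 213 and 371 CPM in SH and 176, 188 and 330.0 CPM in KA (logFC -0.22, SE 0.40, FDR = 1.0, with the block 0.744). Since both genes are higher in glia, markers of glia in the neuron libraries are given here. The 5 OPC markers summed to 39.2 to 182 CPM in SH neurons and 24.9 to 115 CPM in KA neurons, the 8 oligodendrocytic markers to 327 to 1280 and 145 to 703 CPM, the 10 astrocytic markers to 287 to 917 and 298 to 814 CPM, and the 10 microglial markers to 55.8 to 110 and 47.3 to 114 CPM. None of the 4 sums was higher in KA neurons than in the highest SH library apart from the microglial one, and of the 33 genes 1 was higher and 4 were lower in KA neurons with the block.

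Pcdh8 lies at chr14:79766775-79771312 on the minus strand. It was at 184, 199 and 304 CPM in SH neurons and 802, 699.8 and 1121 CPM in KA neurons, 3.82-fold higher without overlap (logFC 1.93, SE 0.58, FDR = 0.585, with the block 0.000379). In per-length level it passed Pcdh9 and became the first non-clustered member of KA neurons, at 213 ± 53.5 (SD, n = 3) against 161 ± 35.7 for Pcdh9, although their ranges overlapped. In glia it was at 17.4, 57.7 and 51.8 CPM in SH and 35.2, 93.1 and 211 CPM in KA, and the groups overlapped (logFC 1.42, SE 0.57, FDR = 0.823, with the block 0.0111). It was higher in KA at each pool number, which pairs different mice. The 15 neuronal markers in glia libraries summed to 709 to 2038 CPM in SH and 554 to 1809 CPM in KA, and 3 of them were lower in KA with the block. The part that neuronal RNA in the NeuN- fraction has in the glial value was not tested.

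Downregulated in neurons were Pcdh20 and Pcdh19. Pcdh20 lies at chr14:88464743-88471396 on the minus strand. It was at 301, 226 and 345 CPM in SH neurons and 132, 102 and 84.1 CPM in KA neurons without overlap, a fold of 0.365 (logFC -1.45, SE 0.37, FDR = 0.299, with the block 0.00396). In glia it went from 48.3, 59.5 and 69.3 CPM in SH to 14.2, 22.4 and 32.3 CPM in KA, again without overlap (logFC -1.36, SE 0.37, FDR = 0.258, with the block 0.00313). It was the only member without overlap in the same direction in both cell types among the 5. Pcdh19 lies at chrX:133582860-133688987 on the minus strand and had 111, 113 and 145 CPM in SH neurons and 54.6, 38.4 and 43.0 CPM in KA neurons, likewise without overlap (logFC -1.44, SE 0.43, FDR = 0.532, with the block 0.0102). In glia it had 9.08, 38.4 and 28.5 CPM in SH and 10.4, 15.4 and 18.6 CPM in KA (logFC -0.77, SE 0.42, FDR = 1.0, with the block 0.378).

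Some markers of dentate granule cells were lower in KA neurons, as Pcdh20 and Pcdh19 were. The 5 genes of that list summed to 747 to 1024 CPM in SH neurons and 528 to 595 CPM in KA neurons, and 2 of them, Calb1 and C1ql2, were lower in KA neurons with the block (Calb1 logFC -1.40, FDR = 0.213, with the block 0.00583; C1ql2 logFC -1.16, FDR = 0.792, with the block 0.0137). The other 3 did not pass, among them Prox1, a transcription factor that defines granule cells, at 82.5, 148 and 219 CPM in SH and 120.4, 171 and 188 CPM in KA neurons (logFC 0.09, SE 0.46). In glia the sum of the 5 ranged from 233 to 413 CPM for SH mice and from 192 to 404 CPM for KA mice. Prox1 was the largest part of this sum, at a mean of 156 CPM in SH glia and 164 CPM in KA glia. Mean Calb1 fell from 36.4 CPM in SH glia to 13.1 CPM in KA glia, and mean C1ql2 from 50.4 to 23.5 CPM. Of the 5 genes, 1 was lower in KA glia without the block and 2 with it, and 1 had a positive logFC. The part of granule cells in the values of Pcdh20 and Pcdh19 was not tested.

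**Figure D4:**
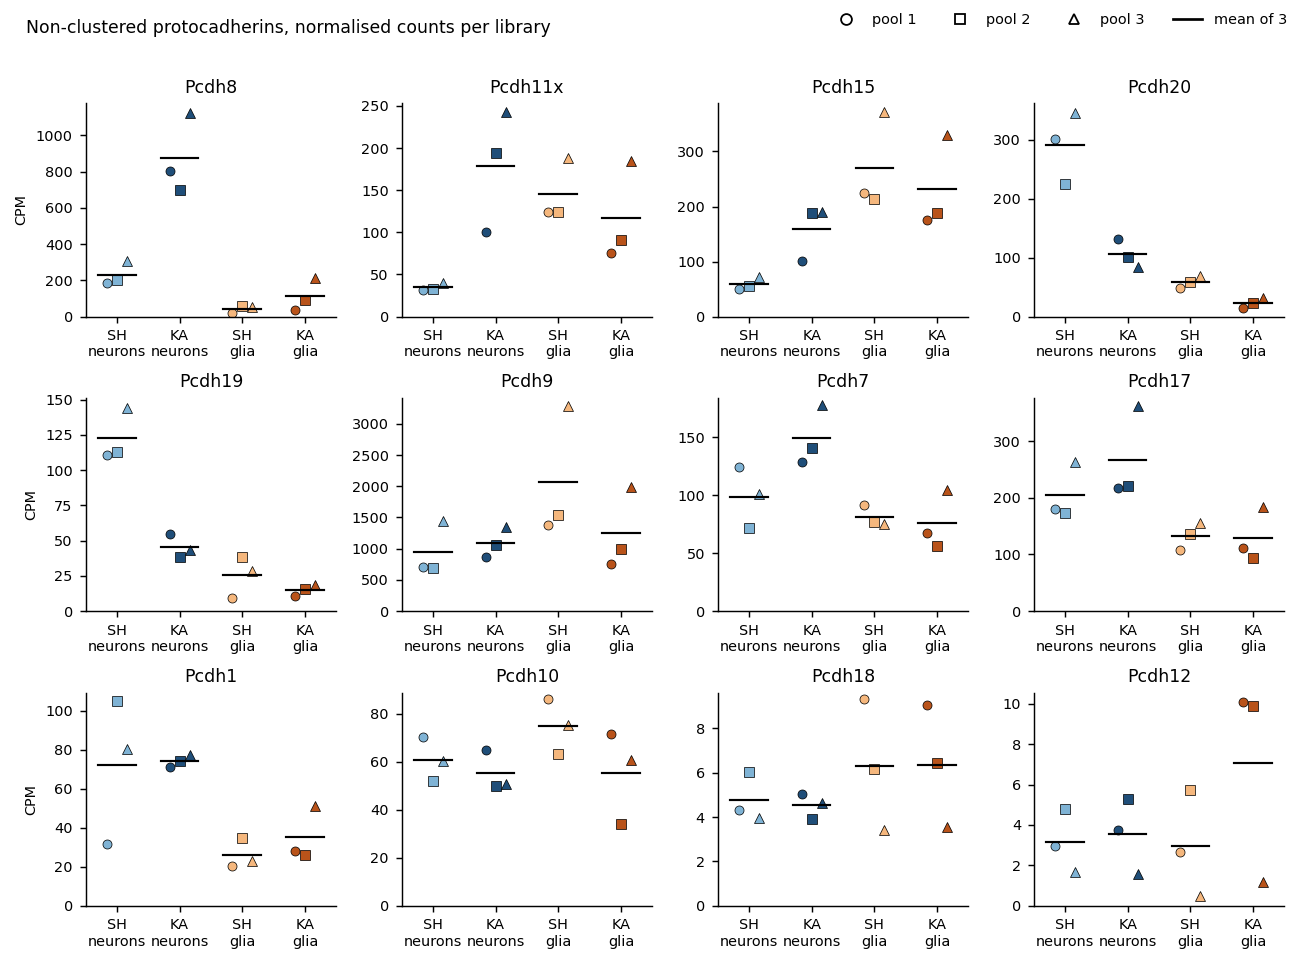
CPM (vertical axis, from 0) of the 12 non-clustered members in each library of the 4 groups (horizontal axis), with the pool as the marker shape and the mean of 3 libraries as a line. Pcdh8, Pcdh11x and Pcdh15 are higher and Pcdh20 and Pcdh19 lower in all 3 KA neuron libraries than in any SH neuron library.

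Promoters of 4 of these 5 genes are shown, 2 upregulated and 2 downregulated, to set their start regions side by side, and none is shown for Pcdh11x, the third upregulated gene. RefSeq sequences of GRCm38.p6, from 250 bases before to 50 bases after an annotated start, were searched on both strands for TATAAA, for the cyclic AMP response element TGACGTCA, for the AP-1 site TGANTCA, for the EGR site GCGNGGGCG and for the MEF2 site. Each is 300 bases long, is printed 5′ to 3′ in the direction of transcription, and has matches in capitals. The upregulated genes come first. The region of Pcdh8 is chr14:79771263-79771562 on the minus strand, and that of Pcdh15 is chr10:73821617-73821916 on the plus strand, which is a start inside the longer gene that GENCODE annotates. 
Pcdh8: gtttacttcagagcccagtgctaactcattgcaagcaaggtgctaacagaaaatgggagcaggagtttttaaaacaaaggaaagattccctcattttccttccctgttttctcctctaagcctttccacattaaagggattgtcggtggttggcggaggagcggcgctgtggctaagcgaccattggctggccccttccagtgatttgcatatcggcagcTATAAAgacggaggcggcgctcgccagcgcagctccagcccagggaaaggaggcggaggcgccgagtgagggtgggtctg
Pcdh15: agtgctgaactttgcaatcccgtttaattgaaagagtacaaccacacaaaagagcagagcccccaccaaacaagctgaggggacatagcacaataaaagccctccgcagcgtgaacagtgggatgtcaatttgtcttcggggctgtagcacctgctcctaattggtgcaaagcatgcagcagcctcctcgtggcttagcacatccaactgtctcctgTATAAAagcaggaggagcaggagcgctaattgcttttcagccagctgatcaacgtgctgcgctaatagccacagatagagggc

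The regions of the downregulated genes are chr14:88471347-88471646 (Pcdh20) and chrX:133688944-133689243 (Pcdh19), both on the minus strand.
Pcdh20: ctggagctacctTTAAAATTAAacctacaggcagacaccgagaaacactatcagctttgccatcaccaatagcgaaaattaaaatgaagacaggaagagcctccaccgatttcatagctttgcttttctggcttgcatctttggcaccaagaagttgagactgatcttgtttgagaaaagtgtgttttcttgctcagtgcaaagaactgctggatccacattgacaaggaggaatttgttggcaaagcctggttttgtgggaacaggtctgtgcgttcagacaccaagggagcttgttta
Pcdh19: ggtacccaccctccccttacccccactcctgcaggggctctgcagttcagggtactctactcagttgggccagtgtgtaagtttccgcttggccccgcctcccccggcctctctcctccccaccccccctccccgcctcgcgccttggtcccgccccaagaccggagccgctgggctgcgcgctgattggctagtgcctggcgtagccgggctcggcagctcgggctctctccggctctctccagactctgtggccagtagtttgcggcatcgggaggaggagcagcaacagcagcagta

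The capitals in Pcdh8 and Pcdh15 mark TATAAA, which starts 30 and 33 bases before the annotated start. Of all 32851 promoters of the same length 13.6% hold TATAAA on either strand. The capitals in Pcdh20 mark a MEF2 site 238 bases before the start, and 3.19% of all promoters hold one. None of the 4 windows holds TGACGTCA (1.79% of all promoters), TGANTCA (7.81%) or GCGNGGGCG (5.55%). The windows also differed in composition, with 43.7% G and C in Pcdh20, 50.7% in Pcdh15, 54.3% in Pcdh8 and 67.7% in Pcdh19. Windows of the same kind were used for 9 members in all. Chromosome 18, which holds all clustered members, Pcdh1 and Pcdh12, was left out of this search. Of the other 5 members with a window only Pcdh17 held a motif, an EGR site 130 bases before its start. A match describes letters in a window and not a site in use.

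The other 7 non-clustered members did not pass in neurons. Pcdh7, of the delta-1 group, had the next largest value, with 124, 71.4 and 101 CPM in SH neurons and 129, 140.4 and 178 CPM in KA neurons, which did not overlap (logFC 0.59, SE 0.34, FDR = 1.0, with the block 0.478). Pcdh17 (logFC 0.38, SE 0.38), Pcdh9 (0.21, SE 0.54), Pcdh12 (0.17, SE 0.84), Pcdh1 (0.03, SE 0.41), Pcdh18 (-0.08, SE 0.50) and Pcdh10 (-0.15, SE 0.33) lay closer to 0. The SH and KA libraries of these 6 overlapped.

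Clustered genes in KA neurons stayed within a logFC of -0.71 to 0.97, against -1.45 to 2.36 for the non-clustered. The median was 0.03 in Pcdha, -0.13 in Pcdhb and 0.40 in Pcdhg, with 9 of 13, 6 of 22 and 19 of 21 positive, beside a median of 0.0005 over all genes. Pcdhgb7 had the most positive value of Pcdhg, at 1.39, 4.81 and 3.67 CPM in SH and 4.36, 6.80 and 8.26 CPM in KA neurons (logFC 0.97, SE 0.59, FDR = 1.0, with the block 0.417). Pcdhga2 had the most negative (logFC -0.09, SE 0.40). Pcdha8 (logFC 0.56, SE 0.42) and Pcdha2 (logFC -0.62, SE 0.69) were the ends of Pcdha, and Pcdhb21 (logFC 0.39, SE 0.31) and Pcdhb2 (logFC -0.71, SE 0.94) those of Pcdhb. Without SH pool 1 the Pcdhg median was 0.09, that of Pcdha -0.21 and that of Pcdhb -0.07. The Pcdhg median in KA neurons thus depended on SH pool 1, whose Pcdhg values were low.

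Mean C-type shares in SH and KA neurons differed by less than 1 SD of the SH libraries for 4 of the 5 members, and by more for Pcdhac1 (8.02% ± 0.63 of Pcdha in SH and 8.83% ± 0.58 in KA neurons). Pcdhgc5 made up 22.9% ± 1.28 of Pcdhg in SH and 22.1% ± 1.18 in KA neurons, Pcdhgc4 6.30% ± 1.24 and 6.92% ± 0.61, and Pcdhgc3 3.30% ± 2.61 and 4.77% ± 1.44. Pcdhac2 made up 33.5% ± 2.60 of Pcdha in SH and 31.4% ± 3.31 in KA neurons. LogFC of KA over SH neurons were -0.08 (SE 0.51) for Pcdhac2, 0.17 (SE 0.45) for Pcdhac1, 0.67 (SE 0.67) for Pcdhgc3, 0.46 (SE 0.47) for Pcdhgc4 and 0.31 (SE 0.58) for Pcdhgc5, none past the threshold.

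In glia no member passed without the block, beside 0.442% of all genes higher and 0.306% lower in KA. Of the 68, 2 had an unadjusted p under 0.05 in edgeR, DESeq2 called 2 and edgeR 4 called 1. With the block 5 members were upregulated and 2 downregulated, beside 3.47% and 4.17% of all genes. KA libraries lay above all SH libraries for 2 members and below for 1, beside 3.61% and 3% of all genes. Besides Pcdh8 and Pcdh20, given above, the calls with the block were Pcdh12, Pcdhgc5, Pcdhga12 and Pcdhb19 (higher) and Pcdh9 (lower).

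Pcdh9, the most abundant member in glia, had 1373, 1541 and 3283 CPM in SH glia and 748, 997 and 1992 CPM in KA glia. The groups overlapped, and pool 3 was the highest in both (logFC -0.73, SE 0.54, FDR = 1.0, with the block 0.103). KA was lower than SH at each pool number, although KA and SH pools of the same number hold different mice. Oligodendrocytic markers, summed, were 14283 to 29772 CPM in SH glia and 7488 to 14034 CPM in KA glia, OPC markers 1656 to 3018 and 753 to 1463 CPM, and astrocytic markers 2190 to 3167 and 1294 to 2436 CPM. With the block 5 of 8, 4 of 5 and 7 of 10 of these markers were lower in KA glia, and their part in the Pcdh9 value was not tested. Pcdh12 had 2.65, 5.74 and 0.48 CPM in SH glia and 10.1, 9.90 and 1.19 CPM in KA glia (logFC 1.26, SE 0.85, FDR = 1.0, with the block 0.118). The 7 endothelial markers summed to 47.2, 44.7 and 12.7 CPM in SH glia and 67.7, 60.8 and 21.8 CPM in KA glia, low in pool 3 like Pcdh12. With the block 1 of the 7 was higher in KA glia, and their part in the Pcdh12 value was not tested.

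Pcdhgc5 had 5.23, 38.8 and 34.0 CPM in SH glia and 28.2, 41.5 and 77.3 CPM in KA glia, and the groups overlapped (logFC 0.91, SE 0.58, with the block 1.19 and FDR = 0.0753). Its lowest value, 5.23 CPM, was that of the low-input library of SH glia, and the 41.5 CPM in KA glia also came from a low-input library. Pcdhga12 had 13.9, 17.2 and 24.4 CPM in SH and 21.2, 31.4 and 39.99 CPM in KA glia, higher at each pool number while the groups overlapped (logFC 0.74, SE 0.43, with the block FDR = 0.221). Pcdhb19 had 0.24, 13.1 and 6.57 CPM in SH and 12.2, 12.7 and 13.6 CPM in KA glia (logFC 0.94, SE 0.68, with the block FDR = 0.237), so that its difference came from the low-input library and pool 3. The family medians were -0.20 in Pcdha, 0.11 in Pcdhb and 0.27 in Pcdhg beside 0.14 over all genes, and -0.27, 0.15 and 0.09 without SH pool 1. The ends of the families were Pcdha8 (0.29) and Pcdha12 (-0.43), Pcdhb1 (1.00, SE 1.32) and Pcdhb9 (-0.64), and in Pcdhg Pcdhgc5 and Pcdhga2 (-0.30). Without both low-input libraries the Pcdhg median was -0.06 and that of Pcdha -0.73. Of the non-clustered genes not yet given for glia, Pcdh10 had a logFC of -0.43 (SE 0.33), Pcdh7 -0.09 (SE 0.34), Pcdh17 -0.04 (SE 0.38), Pcdh18 0.01 (SE 0.50) and Pcdh1 0.44 (SE 0.41).

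**Figure D5:**
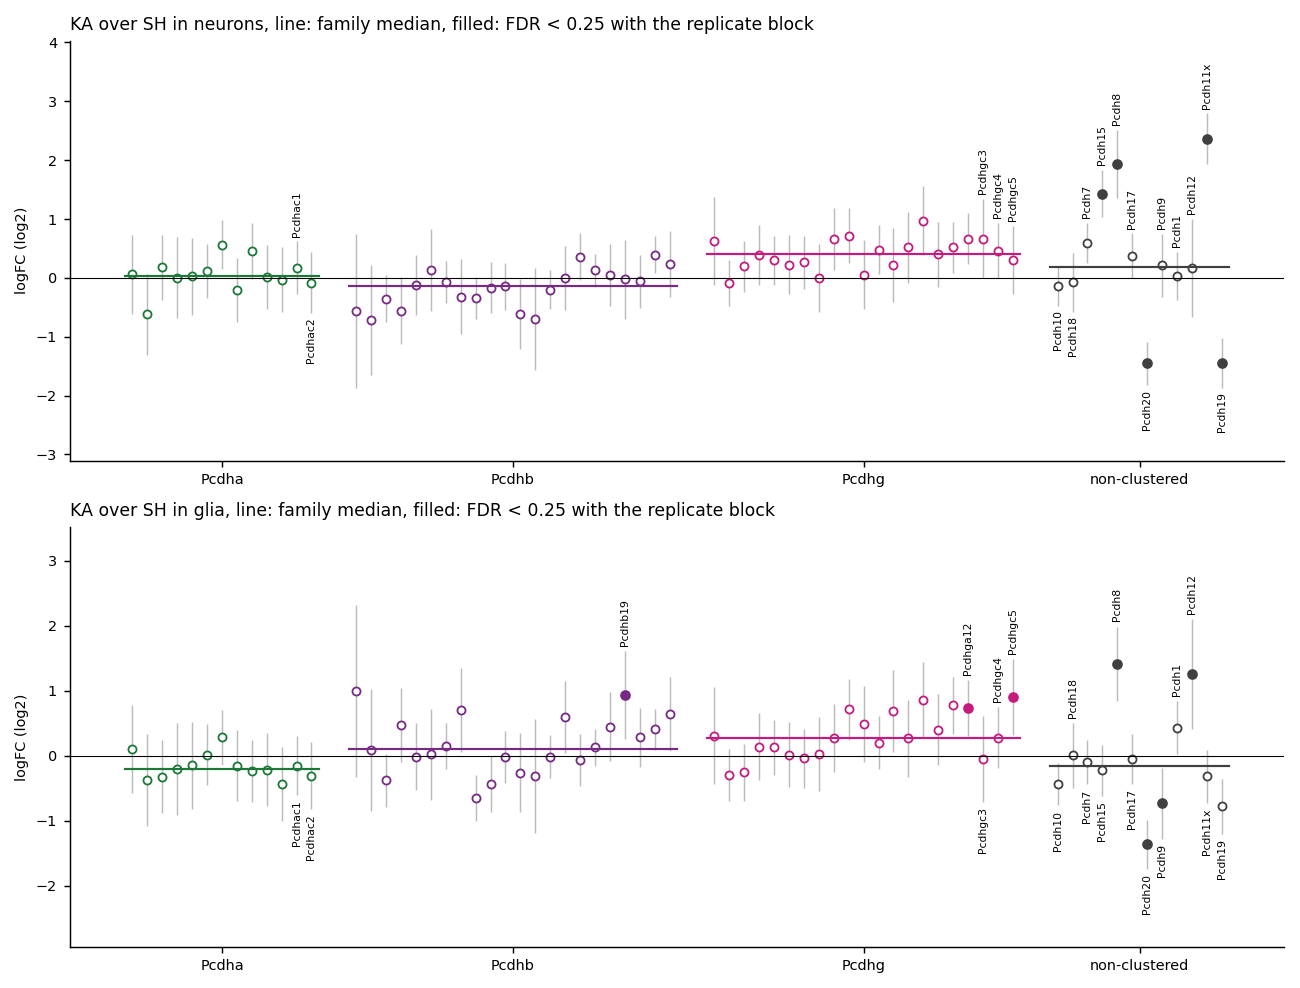
LogFC of KA over SH (log2, vertical axis) with its standard error for each of the 68 members in neurons (upper) and glia (lower), grouped by family in chromosomal order, with the family median as a line. Filled points passed an FDR of 0.25 with the replicate block. In neurons the 5 filled points are all non-clustered, and clustered members lie between -0.71 and 0.97.

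Whether KA changed a member differently in neurons and in glia was tested as the difference of both logFC. No member passed without a block, and 0% of all genes did, while 2 members had an unadjusted p under 0.05, DESeq2 called 1 member and edgeR 4 called 0. With the pool as a block Pcdh11x (logFC in neurons minus that in glia 2.67, SE 0.31, FDR = 0.007) and Pcdh15 (1.63, SE 0.33, FDR = 0.0965) passed, beside 0.314% of all genes higher and 0.157% lower. Both were higher in KA neurons and slightly lower on average in KA glia. For Pcdh20 the difference was -0.09 (SE 0.52, FDR = 1.0), for Pcdh8 0.52 (SE 0.80, FDR = 1.0) and for Pcdh19 -0.67 (SE 0.59, FDR = 1.0), which does not show that these genes responded alike in both cell types.

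Position in the cluster was described across members, which share libraries and reads and are no replicates. Across the 22 Pcdhb genes Spearman's rho between the order along the chromosome and the logFC of KA over SH neurons was 0.67, and in glia it was 0.21. Across the 18 Pcdhg genes other than the C-type it was 0.46 in neurons and 0.75 in glia, and across the 11 such Pcdha genes it was 0 and -0.23. Across these 18 Pcdhg genes the logFC of neurons over glia went down along the array (rho -0.41 in SH and -0.64 in KA).

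Genes that act with protocadherins were taken from 3 lists. Their counts stand beside the shares of all genes given above, which with the block were 1.94% higher and 1.11% lower in KA neurons and 3.47% and 4.17% in KA glia, and without it 6.05% and 4.67% between neurons and glia of SH mice. Of 17 regulators of the cluster (CTCF, cohesin and silencing factors) 0 were called in KA neurons or KA glia without the block. With the block 1 was called, lower in KA glia (Stag2, a cohesin subunit, logFC -0.71, FDR = 1.0, with the block 0.164). Between neurons and glia of SH mice Rest, a repressor of neuronal genes, was lower in neurons (logFC -2.07, SE 0.38, FDR = 0.0018). Ctcf itself had 77.4, 60.4 and 66.5 CPM in SH neurons and 50.3, 51.8 and 60.2 CPM in KA neurons.

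Of 23 binding and signalling partners 0 were called in KA neurons and 1 in KA glia. This was Ret, a receptor kinase that binds clustered protocadherins, at 5.14, 8.13 and 2.27 CPM in SH glia and 18.2, 14.7 and 16.2 CPM in KA glia (logFC 1.67, SE 0.45, FDR = 0.249, with the block 0.0135). With the block 1 of the 23 was lower in KA neurons and 6 were lower in KA glia, among them, in both cell types, Wasf1, a subunit of the WAVE complex that delta protocadherins recruit (logFC -1.19 in neurons with FDR = 0.66 and with the block 0.0185, and -1.28 in glia with FDR = 0.353 and with the block 0.00665). Between neurons and glia of SH mice 4 of the 23 were higher and 1 was lower in neurons.

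Of 28 classical and other cadherins 0 were called in KA neurons and 1 in KA glia in the joint fit without the block. With the block 3 were higher and 1 lower in neurons and 1 higher and 3 lower in glia. The paper, which treated neurons and glia separately, lists Cdh4 and Cdh22 as upregulated in neurons, and Cdh22 also in glia, at the same threshold. Cdh22, a classical type II cadherin, had 4.26, 14.2 and 4.69 CPM in SH glia and 19.5, 27.4 and 73.8 CPM in KA glia (logFC 2.38, SE 0.55, FDR = 0.126, with the block 0.00332). In neurons Cdh22 had 11.3, 24.5 and 18.2 CPM in SH and 41.3, 62.4 and 71.8 CPM in KA (logFC 1.70, SE 0.53, FDR = 0.637, with the block 0.0271). It was higher in all KA libraries than in any SH library of the same cell type. Between neurons and glia of SH mice 8 of the 28 were higher and 3 lower in neurons (median logFC 0.68).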

How the data were processed

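Per the study's methods, Rsubread mapped trimmed reads to mm10, and featureCounts with default settings (no strand, unique alignments, no read shared by several genes) summed them over GENCODE M16 genes. The authors deposited whole-number counts per gene and library, without normalization. The paper states that mRNA libraries were sequenced either with single reads on a NextSeq or with longer paired-end reads on a HiSeq. Which library was run on which platform is not given in the sources used here. Exon positions and symbols were taken from GENCODE M21.

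Tests on counts used edgeR 4.0.16 (R 4.3.3): filterByExpr (minimum count 10, minimum total 15), TMM, and 1 quasi-likelihood fit (legacy=TRUE) of 4 group means to 12 libraries, with Benjamini-Hochberg adjustment over 37598 genes. CPM values used TMM-scaled totals. The SE of a logFC was its size over the square root of F. The FDR threshold was 0.25 for KA against SH and 0.05 between cell types. P values of this fit measure the spread between the 3 pools within a group, estimated over all 4 groups. The fit treated neurons and glia of the same pool as independent. P values with a block measure the spread that the block leaves.

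Libraries of the same number deviated together from their group means (r = 0.264 to 0.551 between KA and SH neurons, 0.457 to 0.764 in glia), and neurons and glia of a pool come from the same mice (r = 0.293 to 0.649), so a replicate block was fitted beside it, by pool between cell types. "With the block" gives its FDR. For KA against SH the block pairs different mice by pool number alone. The fit was also run on simulated counts with the same spread for all genes and no effect of pool or replicate. That run therefore does not test the block. DESeq2 1.42.0, edgeR 4 (legacy=FALSE), other scalings, filters and left-out libraries were alternatives.

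The members and gene lists were chosen with earlier results of these data known. Named were all non-clustered and C-type members, members past the FDR in KA against SH, and per clustered family the highest and lowest level in SH neurons and the most positive and negative logFC. Pcdha5, Pcdha7, Pcdhb17, Pcdhb20, Pcdhga11, Pcdhga12 and the markers Calb1, C1ql2 and Prox1, as well as Ctcf, Stag2, Rest, Wasf1, Ret and Cdh22, were named after their values were seen. Figures were drawn with matplotlib in Python.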

Additional observations from a re-analysis of the deposited data

Results flagged for a closer look

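The KA effect differed between neurons and glia for 2 members with the pool as a block. For Pcdh11x the logFC of KA over SH in neurons exceeded that in glia by 2.67 (SE 0.31, FDR = 0.007 in edgeR's quasi-likelihood test). For Pcdh15 it exceeded it by 1.63 (SE 0.33, FDR = 0.0965). Both genes were higher in glia than in neurons of SH mice, and neither passed without the block (FDR = 0.874 and 1.0). Groups of 3 libraries were not searched for outlying values.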

How the results depend on the processing

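Calls of members in KA neurons (1 of 68) became 4 with upper quartile scaling, 5 with 10 counts in every library, with DESeq2, with separate fits per cell type and with the replicate block, and 3 with edgeR 4. They became 0 with autosomes only (Pcdh11x is X-linked), at an FDR of 0.05 and without SH pool 1, and ranged from 0 to 4 when 1 library was left out. Calls in KA glia (0) became 1 with upper quartile scaling, with 10 counts in 3 libraries, with edgeR 4 and with autosomes only, 2 with 10 counts in every library and with DESeq2, and 7 with the replicate block (0 to 1 with 1 library left out). Calls of the difference (0) became 1 with upper quartile scaling, with 10 counts in every library and with DESeq2, and 2 with the block by pool, and stayed at 0 with 1 library left out. Calls between cell types in SH (10) became 6 with RLE scaling, without a filter and without the third pools, 3 (0 higher, 3 lower) without the low-input libraries, and 19 with the block by pool and at an FDR of 0.25 (5 to 11 with 1 library left out). In KA (8) they became 4 with RLE scaling and without the low-input libraries, 5 without the third pools, 13 with DESeq2 and with edgeR 4, 22 with the block by pool and 20 at an FDR of 0.25 (0 to 11 with 1 library left out).

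Medians that moved by more than the spread between libraries were these. Without the low-input libraries the Pcdha median was -0.73 in KA against SH glia and 0.65 in the difference, and that of Pcdhb in the difference was 0.0538. Between cell types in SH, with 10 counts in every library, the Pcdha median was 0.97, that of Pcdhb 0.0853 and that of the non-clustered -0.12. Without SH pool 1 those of Pcdhb and the non-clustered were -0.0843 and -0.19. The non-clustered median, 0.19, was 0.0546 with RLE scaling, 0.0542 with DESeq2, 0.0522 without the low-input libraries, 0.0549 without the third pools, 0.0353 with upper quartile scaling and 0.38 with the block by pool. In KA, the Pcdhb median was -0.12 with 10 counts in every library and -0.26 without SH pool 1, and the non-clustered median 0.45 without the low-input libraries and 0.38 without SH pool 1. With 1 library left out the medians ranged from -0.21 to 0.30 (Pcdha, KA neurons), 0.0609 to 0.36 (non-clustered, KA neurons), 0.94 to 1.64 (Pcdha in SH), -0.012 to 0.61 (Pcdhb in SH), -0.12 to 0.45 (non-clustered in SH), -0.93 to 0.03 (Pcdhg in SH), -0.26 to 0.27 (Pcdhb in KA), -0.72 to 0.21 (Pcdhg in KA) and 0.38 to 1.201 (non-clustered in KA). Leaving out SH pool 1 was chosen after seeing the data. Per all exon bases, the median levels were 1.44 and 0.54 for Pcdha and 1.68 and 2.03 for Pcdhg in SH neurons and glia. Except where the construction shows it, the cause was not tested. Among 3770 refitted values of named members, 97 calls were lost, 92 were gained and 0 changed sign as a call. Depth limited low clustered members: 5 of 156 Pcdha and 10 of 264 Pcdhb values were under 10 counts.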
